A study of Mus musculus with 30 samples.

Results

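Microglia of mice born to dams with maternal immune activation (MIA) were compared between postnatal day 7 (P7) and postnatal day 20 (P20). The 6 libraries were P7 MIA 1 to 3 and P20 MIA 1 to 3, taken by their labels from the 30 libraries of the series, and all 14225 transcripts of the table were tested. MIA was the injection of poly(I:C), a double-stranded RNA analog that mimics infection by a virus, into pregnant C57BL/6J dams in mid-gestation, and the offspring in both groups received no further treatment. CD11B is a surface integrin of microglia and other myeloid cells, and the cells were taken from the whole brain with beads against it, without a second marker. A P7 library came from a pool of 3 brains and a P20 library from 1 brain, so that a P7 library averages over animals and a P20 library does not. The P7 Saline and P20 Saline offspring, with 3 libraries each and the same strain, tissue and isolation, came from saline-injected dams and served as the background for the same step in age. The question was how the transcriptome of microglia changed between the end of the first postnatal week and weaning age in the MIA offspring, and whether that change differed from the one in Saline offspring.

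Microglia are the resident macrophages of the brain. They enter it before birth, multiply there after birth, and then take on a mature, ramified form with a set of surface sensors known as the homeostatic signature, which depends on TGF-beta signaling and on factors such as SALL1. In the first postnatal week some microglia hold an amoeboid, phagocytic state that clears dying cells and young oligodendrocytes around developing white matter. Myelination and the growth of synapses proceed in the brain over the same weeks.

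The values were TPM, a level scaled for transcript length and for the total of the library, and changes are differences in mean log2(TPM + 1), P20 minus P7, so that genes near 0 TPM have small changes. Tests were limma moderated tests with adjustment over all 14225 transcripts at 0.05, and every adjusted p below is from that test. The reads on the listed transcripts were estimated at 8123000 to 11087000 in the 6 MIA libraries, P7 MIA 3 being the lowest. The paper states a higher minimum number of sequenced reads per sample. By the estimate, 1 read on a transcript of 1 kb was worth 0.249 to 0.354 TPM. Pearson correlations between libraries were 0.970 to 0.992 at P7 and 0.988 to 0.993 at P20. The sum of 4 Y-linked genes was 138, 0.1 and 285 TPM in P7 MIA 1, 2 and 3, but 0.32, 0.59 and 0.29 TPM in the 3 P20 MIA libraries. Xist was at 123, 222 and 80.1 TPM in P7 MIA 1, 2 and 3 and at 189, 191 and 190 TPM in P20 MIA 1, 2 and 3. The labels give no sex, while the paper states that both sexes were sequenced. The Y-linked level and age cannot be told apart except through P7 MIA 2. A fit with that library alone at P7 called 2537 transcripts. Genes with several annotated transcripts had low levels in the table, with a median of 25.6 TPM for transcripts of genes with 1 RefSeq transcript and 3.88 TPM for those with 4 or more. Levels of genes such as Apoe or Trem2 are thus read only against themselves. Of the 39 genes named by rule, 12 overlap another annotated gene, among them Ccna2 with Exosc9, Kif5a with Dctn2, Ctsb with Fdft1 and Pfn1 with Eno3, and the non-stranded libraries cannot separate their shared bases.

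Of the 14225 transcripts, 5063 (35.6%) differed between P7 MIA and P20 MIA, 1858 (13.1%) being higher and 3205 (22.5%) lower at P20. A change of more than 1 on the log2 scale was reached by 832 of the higher and 1094 of the lower transcripts. The median change over all transcripts was -0.09, and this median is the value beside which the gene lists below are set. Likewise, the 35.6% of all transcripts that were called is the share beside which counts of called members are set. The excess of lower transcripts depended on the scaling. With median-ratio scaling, 2429 transcripts were higher and 2513 lower (49.2% of calls higher against 36.7%), and with quantile normalization 2602 were higher and 2679 lower. The 3 libraries of each group did not overlap for 4949 of the 5063 called transcripts, and for 7156 (50.3%) of all transcripts.

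Most of the 12 largest falls were those of genes of cell division, while the largest was that of Gpnmb, described below. Of the 12, the mitotic genes Mki67, Top2a, Ccnb2, Ube2c and Ccna2 were among the members of the mitosis list, and Rrm2, which makes deoxynucleotides, was in the DNA replication list. Mki67, the proliferation marker Ki-67 (chr7:135689784-135716450, GRCm38.p6), was at 157, 189.9 and 196 TPM at P7 and 3.69, 4.15 and 4.65 TPM at P20 (log2 change -5.14, SE 0.24, limma adjusted p = 3.8e-13), so that its mean was 43.5 times higher at P7. Top2a, the topoisomerase that untangles sister chromosomes (chr11:98992947-99024199), was at 239, 263 and 279 TPM at P7 and 6.03, 5.85 and 7.54 TPM at P20 (log2 change -5.13, SE 0.28, limma adjusted p = 4.3e-12). Ccnb2, a mitotic cyclin, was at 150.5, 137 and 137 TPM at P7 and 2.89, 3.03 and 4.69 TPM at P20 (log2 change -4.99, SE 0.25, limma adjusted p = 6.4e-13). All 3 genes were high in every P7 library and at a few TPM in every P20 library, with a narrow spread within each age. The other largest falls were those of Neil3, a DNA glycosylase (-5.02), Fam64a, a mitotic regulator (-4.84), Pbk, a mitotic kinase (-4.83), Cdca3, a trigger of mitotic entry (-4.71) and 2810417H13Rik, the PCNA-associated factor (-4.71).

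Of the 23 mitosis genes with a value, 22 were lower at P20 and 0 higher, with a median change of -4.19 against -0.09 for all transcripts. The kinases Cdk1 (-3.86), Aurkb (-4.43) and Plk1 (-4.05), the motor protein Kif11 (-4.47), the spindle checkpoint kinase Bub1b (-3.96) and the kinetochore genes Cenpe (-4.50), Ndc80 (-4.19) and Nuf2 (-4.05) all fell. Ube2c, the ubiquitin-conjugating enzyme of the anaphase-promoting complex, was at 197, 191 and 185 TPM at P7 and 4.5, 5.61 and 7.49 TPM at P20 (log2 change -4.83, SE 0.35, limma adjusted p = 2.2e-10). Foxm1, the transcription factor that drives many of these genes, fell by 3.32 on the log2 scale. Anln, an actin-binding protein of cytokinesis that is also expressed in oligodendrocytes, did not pass, at 35.1, 48.04 and 49.2 TPM at P7 and 27.4, 19.1 and 25.4 TPM at P20 (log2 change -0.85, limma adjusted p = 0.099). Summed over the list, the P7 libraries held 1952, 2084 and 2138 TPM and the P20 libraries 97.2, 92.8 and 117 TPM.

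**Figure D1:**
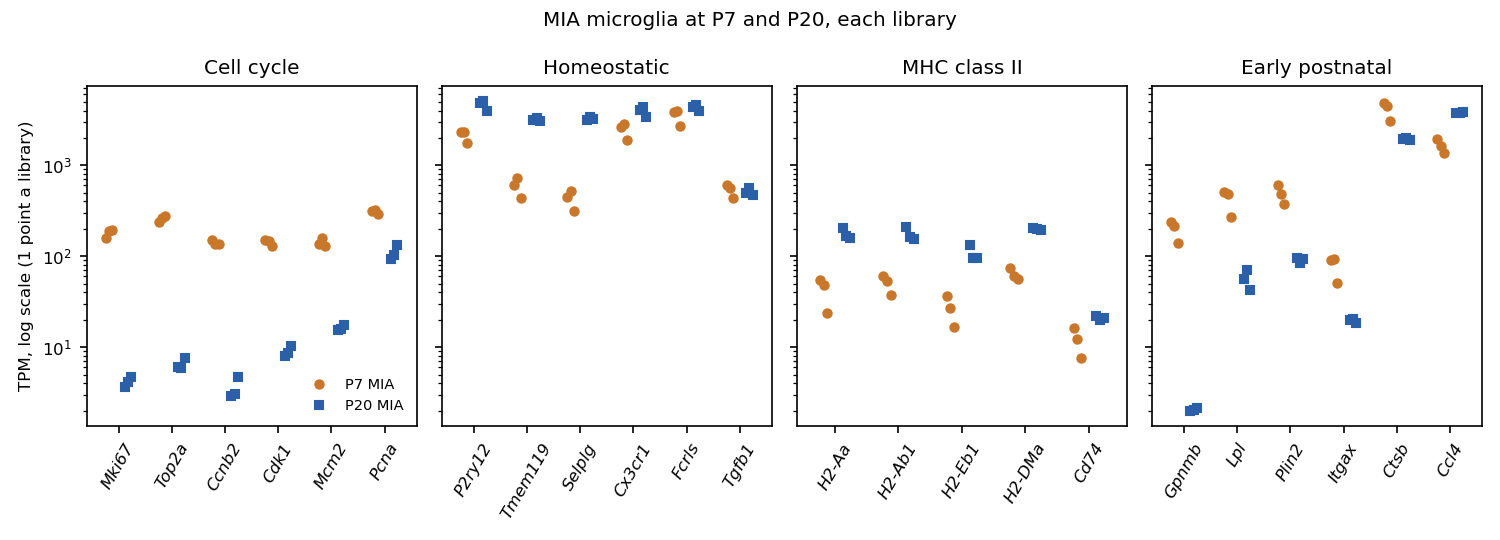
Level in TPM, on a log axis, of 23 genes of the cell cycle, homeostatic, MHC class II and early postnatal lists, with 1 point for each of the 3 P7 MIA (circles) and 3 P20 MIA (squares) libraries. Mki67 lies between 157 and 196 TPM at P7 and between 3.69 and 4.65 TPM at P20, while Tmem119 lies between 436 and 716 TPM at P7 and between 3057 and 3331 TPM at P20.

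Most of the searched promoters of mitotic genes hold a known sequence. Windows from the mitosis list are shown because it had the lowest median change of the gene lists. The 6 windows were taken only from promoters that hold the sequence. They are examples and no measure of how common it is, and mitosis promoters without it are not shown. Many G2 and M phase genes carry a cell cycle genes homology region (CHR), TTTGAA, at which the DREAM and MuvB complexes bind. In the RefSeq promoters of GRCm38.p6, taken from 250 bases before to 50 bases after the start and searched on both strands, TTTGAA was found in 15 of the 20 mitosis genes with a promoter entry (75%), in 3 of 25 DNA replication genes (12%), in 5 of 23 homeostatic genes (21.7%) and in 14% of all 10158 matched genes of the table. The windows of 30 bases are written 5′ to 3′ on the strand of the gene, with the element, or its reverse complement TTCAAA, in capitals.
Mki67 (chr7:135716460-135716489, minus strand): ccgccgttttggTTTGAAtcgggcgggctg
Top2a (chr11:99024195-99024224, minus strand): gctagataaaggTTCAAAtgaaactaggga
Ccnb2 (chr9:70421533-70421562, minus strand): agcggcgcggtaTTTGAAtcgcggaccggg
Ube2c (chr2:164769888-164769917, plus strand): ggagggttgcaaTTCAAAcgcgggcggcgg
Kif11 (chr19:37376351-37376380, plus strand): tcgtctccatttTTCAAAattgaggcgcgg
Hmmr (chr11:40733412-40733441, minus strand): agttgaggtaaaTTTGAAttcaggcgagct
Counted from the start of the promoter entry at 0, the first base of the element lay at -98 in Mki67, -23 in Top2a, 4 in Ccnb2, -29 in Ube2c, -19 in Kif11 and 8 in Hmmr. That start is the outer end of the gene in Ccnb2, Ube2c and Kif11, but it lies 71 bases inside that end in Mki67, 10 in Top2a and 27 in Hmmr, so the distances hold for these starts alone.

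A CCAAT box, the NF-Y element, was found in 75% of the mitosis promoters, 60% of the DNA replication promoters and 41.5% of all. An E2F site, written as TTTCCCGC or TTTGGCGC, was found in 9 of 25 DNA replication promoters (36%), in 0 of 20 mitosis promoters and in 3.04% of all. The PU.1 site GAGGAAGT was found in 1 of the 23 homeostatic genes with a promoter entry (4.35%), against 3.58% of all. These are matches of letters in a fixed window and no measure of binding.

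The DNA replication genes fell as well, by a smaller amount. Of 32 with a value, 31 were lower and 0 higher, with a median change of -2.04. The replicative helicase subunits Mcm2 (-3.03), Mcm3 (-1.94), Mcm4 (-2.54) and Mcm7 (-2.22), the sliding clamp Pcna (-1.50), the histone chaperones Chaf1a (-3.35) and Chaf1b (-3.69) and the polymerase subunit Pole (-3.80) were among them. Rrm2, the regulated subunit of ribonucleotide reductase (chr12:24708254-24714146), was at 134, 139 and 141 TPM at P7 and 4.21, 4.54 and 6.06 TPM at P20 (log2 change -4.56, SE 0.32, limma adjusted p = 1.3e-10). Pcna was at 318, 323 and 289.6 TPM at P7 and 94.2, 103 and 132 TPM at P20 (log2 change -1.50, limma adjusted p = 3.7e-07). Unlike the mitotic genes, many replication genes were still above 10 TPM at P20, and the list summed to 438, 464 and 506 TPM there against 2034, 2158 and 1959 TPM at P7. Dut, a dUTPase, did not pass (-0.37) and was near 1 TPM at both ages.

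Of 21 cyclins, CDK inhibitors and their regulators, 13 were lower, 1 was higher and 7 did not pass, with a median change of -1.31. The largest falls were those of E2f8 (-4.11), a repressor of the E2F family, and Cdkn2c (-3.88), a CDK4 and CDK6 inhibitor. The inhibitors Cdkn1a (-1.65) and Cdkn2a (-1.83) fell together with the G1 kinase Cdk4 (-1.58) and with Ccnd1 (-0.83) and Ccne1 (-3.38). Ccnd2 (-1.04), Ccnd3 (-0.58), Cdkn1b (0.10) and Rb1 (0.16) did not pass. Btg1, an antiproliferative gene, was the 1 that rose, at 179, 171 and 159 TPM at P7 and 360.4, 366 and 364 TPM at P20 (log2 change 1.10, limma adjusted p = 6.5e-07), and the number that rose was 2 without P20 MIA 1, 2 with log2 Xist, with the markers of other cells or with the replicate block in the fit, 2 in a fit of the 4 groups of P7 and P20, and 3 with quantile normalization.

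Genes of the homeostatic signature moved the other way. Of 32 with a value, 25 were higher, 0 lower and 7 did not pass, with a median change of 0.86. Tmem119, a transmembrane protein used to tell microglia from other macrophages, was at 609.6, 716 and 436 TPM at P7 and 3112, 3331 and 3057 TPM at P20 (log2 change 2.46, SE 0.22, limma adjusted p = 1.1e-08). P2ry12, the ADP receptor that steers microglial processes, was at 2299, 2303 and 1743 TPM at P7 and 4803, 5028 and 3908 TPM at P20 (log2 change 1.12, SE 0.24, limma adjusted p = 6.5e-04). Cx3cr1, the receptor of the neuronal chemokine CX3CL1, was at 2615, 2813 and 1874 TPM at P7 and 4059, 4382 and 3389 TPM at P20 (log2 change 0.71, limma adjusted p = 0.0049). For all 3 genes every P20 library lay above every P7 library, and P7 MIA 3 was the lowest library.

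The largest rises in the list were those of Upk1b, a tetraspanin, at 6.22, 7.16 and 3.2 TPM at P7 and 83.2, 78.3 and 46.9 TPM at P20 (log2 change 3.45, SE 0.42, limma adjusted p = 9.7e-07), and Selplg, the P-selectin ligand, at 447, 515 and 313 TPM at P7 and 3111, 3384 and 3202 TPM at P20 (log2 change 2.95, SE 0.26, limma adjusted p = 7.0e-09). Both groups were far apart for these genes. Cst3, the cysteine protease inhibitor cystatin C (chr2:148871722-148875512), had the largest gain in TPM of all transcripts, at 11645, 11090.3 and 9097 TPM at P7 and 38806, 43729 and 41866 TPM at P20 (log2 change 1.97, SE 0.26, limma adjusted p = 3.6e-06). The purinergic receptor P2ry13 (0.89), the orphan receptor Gpr34 (0.91), the fructose transporter Slc2a5 (1.53), the endocytic adaptor Bin1 (1.81), the receptor Csf1r for the survival factors CSF1 and IL-34 (0.83), the zinc finger factor Sall1 (0.90) and the TGF-beta receptor Tgfbr1 (1.72) were also higher. Those that did not pass included Fcrls (0.32), the ligand Tgfb1 (-0.06), Rgs10 (0.40), P2ry6 (0.27) and Trem2 (0.58). With P7 MIA 2 alone at P7, 11 members were called higher. In bulk libraries a change in the number of cells of a type and a change in RNA per cell cannot be told apart.

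Genes of the early postnatal phagocytic state were mostly lower at P20. Of 22 with a value, 12 were lower, 3 higher and 7 did not pass, with a median change of -0.60. The sum over the list did not fall with them. It was 28388.5, 26254 and 18577 TPM at P7 and 25550, 26814 and 27890 TPM at P20, with means of 24406 and 26751 TPM. Gpnmb, a transmembrane glycoprotein of lysosome-rich phagocytes (chr6:49036518-49058182), had the largest fall among the passing transcripts with a mean of at least 5 TPM at 1 age, at 236, 215 and 138 TPM at P7 and 2, 2.03 and 2.16 TPM at P20 (log2 change -5.97, SE 0.33, limma adjusted p = 4.3e-12). Its mean was 95.1 times higher at P7, and the groups lay far apart. Lpl, lipoprotein lipase, was at 504, 479.6 and 268 TPM at P7 and 55.98, 71.04 and 42.5 TPM at P20 (log2 change -2.84, SE 0.29, limma adjusted p = 5.8e-08). Plin2, which coats lipid droplets, was at 600.4, 489 and 375 TPM at P7 and 96.1, 84.4 and 92.7 TPM at P20 (log2 change -2.39, SE 0.21, limma adjusted p = 5.0e-09). Itgax, the integrin CD11c that marks these cells, was at 90.4, 93.2 and 51.05 TPM at P7 and 19.9, 20.4 and 18.6 TPM at P20 (log2 change -1.89, SE 0.21, limma adjusted p = 2.3e-07). Lgals1 (-2.06), Apoe (-1.39), Vim (-1.02), Anxa5 (-1.05) and the cathepsins Ctsl (-1.17) and Ctsb (-1.06) fell too, and Spp1 (-0.38), seen at about 1 TPM through 1 of its transcripts, did not pass. Apoe has 4 RefSeq transcripts, of which those listed had means of 2.57 to 4.46 TPM over the 6 MIA libraries. Its change was read from 1 of them.

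The 3 members that were higher were the chemokine Ccl4 (1.22), the growth factor Csf1 (0.80) and the aspartyl protease Ctsd (0.60). Ctsd (chr7:142375910-142387827) was at 11255, 10925 and 7013 TPM at P7 and 13604, 14506 and 15315 TPM at P20 (log2 change 0.60, SE 0.22, limma adjusted p = 0.035), and its call was lost without P20 MIA 1, P20 MIA 2, P20 MIA 3 or P7 MIA 3. The number of higher members was 1 without any of these 4 libraries, and the related chemokine Ccl3 did not pass (0.59).

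Of 26 lysosomal genes, 3 were higher, 7 lower and 16 did not pass (38.5% called, near the 35.6% of all transcripts), with a median change of -0.17. The falls were led by Atp6v0d2, a proton pump subunit of highly phagocytic cells, at 33.95, 21.6 and 16.6 TPM at P7 and 0, 0.33 and 0.6 TPM at P20 (log2 change -4.22, SE 0.27, limma adjusted p = 2.6e-11). Gla (-1.68), Gusb (-1.39) and Ctsk (-1.55), 3 lysosomal hydrolases, also fell. Psap (1.53), the saposin precursor, rose from a low level (2.91 to 10.1 TPM), and the cathepsin Ctsh rose by 0.68. The first members listed were Lamp2 (-0.18), a membrane protein, and the cathepsins Ctsz (-0.58) and Ctsa (0.01), of which only Ctsz passed. The abundant Grn (-0.02) and Lgmn (-0.16) did not pass.

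Among 24 phagocytic receptors, ligands and adaptors, 6 were higher, 3 lower and 15 did not pass (37.5% called, near the 35.6% of all transcripts), with a median change of 0.03. Mertk, a receptor for apoptotic cells, was at 347, 403 and 318 TPM at P7 and 745, 764 and 744 TPM at P20 (log2 change 1.08, SE 0.18, limma adjusted p = 6.7e-05), and its relative Tyro3 rose by 0.73. Their bridging ligand Gas6 went the other way, at 1196, 1223 and 755 TPM at P7 and 489.8, 513 and 450.1 TPM at P20 (log2 change -1.09, SE 0.16, limma adjusted p = 1.4e-05). The integrins Itgb3 (0.91), Itgb5 (0.92) and Itgav (0.50) and the engulfment adaptor Elmo1 (0.89) rose, while the scavenger receptor Marco (-1.55) and the phosphatidylserine receptor Timd4 (-1.19) fell. The ligand Pros1 (-0.01) and the signaling adaptor Tyrobp (-0.03) did not pass.

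Genes of antigen presentation were higher at P20. Of 19 with a value, 10 were higher, 0 lower and 9 did not pass (52.6% called, against 35.6% of all transcripts). The median change was 0.81. H2-Aa, the alpha chain of the class II molecule I-A, was at 55.1, 48.4 and 23.5 TPM at P7 and 206, 166 and 158 TPM at P20 (log2 change 2.11, SE 0.30, limma adjusted p = 7.5e-06). H2-Ab1, its beta chain, was at 60.5, 53.6 and 37.4 TPM at P7 and 210.2, 162 and 156 TPM at P20 (log2 change 1.80, SE 0.28, limma adjusted p = 2.3e-05). The groups did not overlap for either gene, and P7 MIA 3 was the lowest library for H2-Aa. H2-Eb1 (2.03) and the peptide loading genes H2-DMa (1.65), H2-DMb1 (1.43), H2-Oa (1.64) and H2-Ob (1.41) rose with them. In class I, H2-T23 (1.47), the transporter Tap2 (0.67) and the activator Nlrc5 (1.39) rose, and B2m (0.46), H2-K1 (0.31) and H2-D1 (0.12) did not pass. The invariant chain Cd74, seen at 11.99 to 20.9 TPM, did not pass (log2 change 0.81, limma adjusted p = 0.064).

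Of 17 complement and Fc receptor genes, 7 were higher, 4 lower and 6 did not pass (64.7% called, against 35.6% of all transcripts). The median change was 0.38. The chains of C1q, which tags synapses and debris for removal, were C1qa at 5726, 5587 and 3625 TPM at P7 and 8352, 9181 and 9422 TPM at P20 (log2 change 0.88, SE 0.21, limma adjusted p = 0.0024), C1qb with 0.66, and C1qc with 0.56, the last turning to -0.03 under quantile normalization. The P20 libraries lay above the P7 libraries for C1qa. The inhibitory receptor Fcgr2b (1.80) and the integrin chain Itgb2 (0.99) had the largest rises, and C2 (-1.35), the C3a receptor C3ar1 (-1.14), Cfp (-1.06) and Cd55 (-0.87) fell. The number of higher members was 3 without P7 MIA 3, 3 without P20 MIA 2 and 4 with median-ratio scaling. C3 (-0.42) did not pass.

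More interferon response genes were higher than lower at P20, and their number depended on single libraries. Of 28 with a value, 17 were higher, 2 lower and 9 did not pass, with a median change of 0.81. Ifit1, which binds viral RNA, was at 4.37, 3.07 and 2.95 TPM at P7 and 19.96, 17.1 and 10.1 TPM at P20 (log2 change 1.87, SE 0.39, limma adjusted p = 5.3e-04). Ifit3 was at 7.43, 7.15 and 4.61 TPM at P7 and 30.7, 27.1 and 16.3 TPM at P20 (log2 change 1.77, SE 0.42, limma adjusted p = 0.002). P20 MIA 1 was the highest library for both genes, and the summed level of the list was 1769, 1496 and 1272 TPM in P20 MIA 1, 2 and 3 against 1399, 1308 and 1259.8 TPM in the P7 libraries. Without P20 MIA 1, 7 members were higher, without P20 MIA 2 there were 11, and without P7 MIA 1 or P7 MIA 2 there were 10. With P7 MIA 2 alone at P7, 3 were higher. P20 MIA 1 also had the highest summed neuron, astrocyte, oligodendrocyte and lymphocyte marker levels of the 6 libraries, which are given below. With the neuron and oligodendrocyte marker levels as covariates, a fit added after the data were seen, 2 members were higher. The summed levels of these markers also rose with age, so this fit cannot separate other cells from age.

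Ifit2 (1.01), the negative regulator Usp18 (1.55), Ifi44 (1.60), the RNA sensor gene Ddx58 (0.74) and Tlr3, the receptor for double-stranded RNA (1.49), were also higher. Tlr3 was at 23.3, 29.2 and 32.01 TPM at P7 and 87.4, 82.9 and 71.4 TPM at P20 (log2 change 1.49, limma adjusted p = 3.8e-07), with every P20 library above every P7 library. The chemokine gene Cxcl10 fell, at 452, 341 and 386 TPM at P7 and 138, 135 and 142 TPM at P20 (log2 change -1.49, limma adjusted p = 7.5e-04), and so did Irf9 (-0.51) from a low level. Isg15 did not pass, at 36.6, 29.2 and 35.1 TPM at P7 and 81.8, 54.6 and 47.5 TPM at P20 (log2 change 0.81, limma adjusted p = 0.054), nor did Bst2 (0.15) or Ifitm3 (0.49).

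Of 28 cytokine, chemokine and receptor genes, 6 were higher, 10 lower and 12 did not pass (57.1% called, against 35.6% of all transcripts). The median change was -0.16. Several chemokine genes were lower. Ccl2 was at 721, 573 and 301 TPM at P7 and 181, 158 and 124 TPM at P20 (log2 change -1.71, SE 0.29, limma adjusted p = 7.8e-05). Ccl7 changed by -1.61, Ccl24 by -1.83, Cxcl1 by -2.04 and Cxcl2 by -1.32. The long pentraxin Ptx3 (-2.09) and the inflammasome sensor Nlrp3 (-1.08) fell too. Ccl5 at 3.37, 3.55 and 5.34 TPM at P7 and 36.5, 23.3 and 18.3 TPM at P20 (log2 change 2.38, SE 0.70, limma adjusted p = 0.01) and Cxcl14 at 13.4, 13.3 and 53.7 TPM at P7 and 118, 97.1 and 92.3 TPM at P20 (log2 change 2.20, SE 0.44, limma adjusted p = 4.0e-04) had the largest rises. The receptor of IL-10, Il10ra, was at 319, 344 and 221 TPM at P7 and 686, 761 and 693 TPM at P20 (log2 change 1.30, limma adjusted p = 7.2e-05). The cytokines Il1a (0.11), Il1b (-0.12), Il18 (0.46), Il10 (-0.02) and Tnf (-0.28) did not pass. Outside the list, Il7r, a receptor chain of lymphocytes and some myeloid cells, was among the 12 largest rises of all, at 1.99, 1.85 and 2.54 TPM at P7 and 45.3, 49.7 and 62.8 TPM at P20 (log2 change 4.09, SE 0.28, limma adjusted p = 9.4e-11), and its P20 libraries lay far above its P7 libraries.

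Of 24 transcription factors of microglia, 8 were higher, 3 lower and 13 did not pass (45.8% called, against 35.6% of all transcripts). The median change was 0.07. Smad7, a TGF-beta target that inhibits the pathway, was at 84.2, 99.1 and 78.1 TPM at P7 and 287, 292 and 346 TPM at P20 (log2 change 1.81, SE 0.19, limma adjusted p = 1.4e-07). Every P20 library lay above every P7 library for it. Irf8 (0.86), Irf5 (0.85), Sall3 (0.91), Bhlhe41 (1.37) and Atf3 (0.94) rose, and Bhlhe40 (-1.26), Fli1 (-0.38) and Rela (-0.33) fell. The lineage factor Spi1, PU.1, did not pass, at 931, 794 and 587 TPM at P7 and 595, 604 and 615 TPM at P20 (log2 change -0.32, limma adjusted p = 0.19), nor did Maf (0.11), Klf2 (0.03) or Nfkb1 (0.04).

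The immediate early genes, which also respond to cell isolation, were high at both ages. Of 15, 7 were higher, 2 lower and 6 did not pass, with a median change of 0.49. Fos was at 3003, 3548 and 2432 TPM at P7 and 2854, 3148 and 4359 TPM at P20 (log2 change 0.20, limma adjusted p = 0.583) and did not pass. Rhob, a small GTPase (chr12:8497661-8500009), was at 2535, 2932 and 2020.2 TPM at P7 and 6734, 7780.1 and 8328 TPM at P20 (log2 change 1.62, SE 0.24, limma adjusted p = 1.7e-05). Zfp36, which degrades cytokine mRNA (chr7:28376784-28379228), was at 5612, 5435 and 2937 TPM at P7 and 9026, 9807 and 10031 TPM at P20 (log2 change 1.10, SE 0.21, limma adjusted p = 1.9e-04). Junb (0.74) and Socs3 (1.22) rose, Fosb (-0.97) and Nr4a2 (-1.03) fell, and the number of lower members was 1 without P20 MIA 1, P20 MIA 2, P7 MIA 1 or P7 MIA 2. The near-identical heat shock genes Hspa1a (1.81) and Hspa1b (2.72) had the largest rises, and how reads were divided between them is uncertain. The part of the isolation in these levels was not tested.

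**Figure D2:**
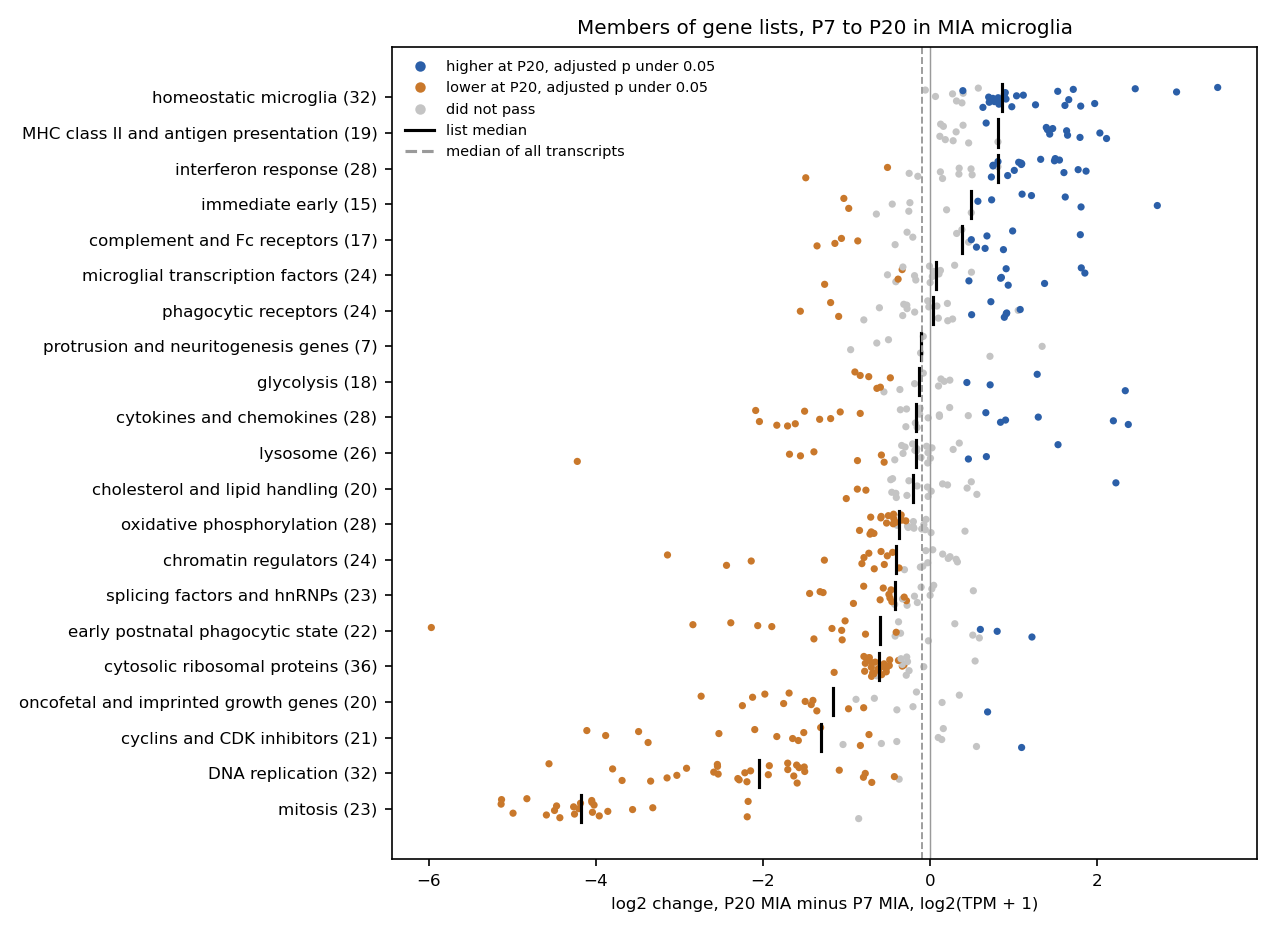
Change in log2(TPM + 1), P20 MIA minus P7 MIA, of every member with a value in 21 gene lists, 1 point a gene, colored by whether it was higher, lower or did not pass, with a bar at the median of each list and a dashed line at that of all transcripts. The number of members stands in brackets, and the mitosis list has its median at -4.19 and the homeostatic list at 0.86, against -0.09 for all transcripts.

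Cytosolic ribosomal protein genes were lower by a small amount. Of 36, 27 were lower, 0 higher and 9 did not pass, with a median change of -0.61. Rplp0 was at 1193, 1037 and 962 TPM at P7 and 637, 659 and 657 TPM at P20 (log2 change -0.70, SE 0.11, limma adjusted p = 3.5e-05), Rpl27 changed by -1.15, while Rplp1 (-0.07) did not pass. The count was 22 with median-ratio scaling and 16 with the neuron and oligodendrocyte covariates. Ribosomal genes have many processed pseudogenes, and reads shared with them make single values uncertain.

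Of 28 genes of oxidative phosphorylation, 16 were lower, 0 higher and 12 did not pass (57.1% called, against 35.6% of all transcripts). The median change was -0.37. Cox5a, a subunit of complex IV (-0.84), Atp5a1, a subunit of ATP synthase (-0.72), and Sdhd, a subunit of complex II (-0.71), fell most clearly, and the first complex I subunits listed, Ndufa1 (-0.27), Ndufa4 (-0.39) and Ndufa6 (-0.07), did not pass. With median-ratio scaling 11 were lower.

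Of 18 glycolysis genes, 4 were higher, 6 lower and 8 did not pass (55.6% called, against 35.6% of all transcripts). The median change was -0.13. Slc2a1, the glucose transporter GLUT1 that is also abundant in endothelium, was at 446, 473 and 827 TPM at P7 and 1042, 1097 and 2215 TPM at P20 (log2 change 1.28, SE 0.36, limma adjusted p = 0.0069). Hk2, a hexokinase, rose by 0.72, and Aldoc, an aldolase that marks astrocytes, by 2.34. The enzymes Tpi1 (-0.90), Pkm (-0.84), Pgk1 (-0.73) and Gapdh (-0.64) fell. The number of higher members was 2 without P20 MIA 3 or without P7 MIA 3.

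Of 20 cholesterol and lipid genes, 1 was higher, 3 lower and 16 did not pass (20% called, against 35.6% of all transcripts), with a median change of -0.20. Scd1, a fatty acid desaturase that myelinating cells also express, was at 27.8, 23.2 and 75.8 TPM at P7 and 224, 174 and 139 TPM at P20 (log2 change 2.23, SE 0.53, limma adjusted p = 0.002), and without P7 MIA 3 the number of higher members was 2. Fdps, an enzyme of cholesterol synthesis (-0.77), and the cholesterol exporter Abca1 (-1.003) fell, while Hmgcs1 (0.44) and Sqle (-0.47) did not pass.

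Splicing and chromatin genes were lower in part. Of 23 splicing factors, 13 were lower, 0 higher and 10 did not pass (56.5% called, against 35.6% of all transcripts). The median change was -0.42, and 7 were lower with median-ratio scaling. The small nuclear ribonucleoprotein genes Snrpd1 (-1.44), Snrpf (-1.32) and Snrpe (-1.28) had the largest falls, while Hnrnpa1 (-0.27), Hnrnpa2b1 (-0.42) and Sf3b1 (0.00) did not pass. Of 24 chromatin regulators, 13 were lower, 0 higher and 11 did not pass (54.2% called, against 35.6% of all transcripts). The median change was -0.41. Lmnb1, a nuclear lamin, was at 289, 313 and 334 TPM at P7 and 33.5, 32.4 and 37.3 TPM at P20 (log2 change -3.14, SE 0.25, limma adjusted p = 1.2e-09), and H2afx, a histone variant of DNA damage signaling (-2.44), and Hmgb2 (-2.14) also fell. The Polycomb gene Suz12 (-0.59) fell, and its partner Eed (-0.09) and the DNA dioxygenase Tet2 (-0.05) did not pass.

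Of 20 oncofetal and imprinted growth genes, 12 were lower, 1 higher and 7 did not pass, with a median change of -1.17. Igf2bp3, a fetal RNA-binding protein, was at 71.9, 70.5 and 59.1 TPM at P7 and 13.6, 11.8 and 14.6 TPM at P20 (log2 change -2.25, SE 0.15, limma adjusted p = 8.2e-11). Sox11, a factor of immature neurons, was at 16.1, 17.5 and 52.2 TPM at P7 and 3.5, 2.31 and 2.77 TPM at P20 (log2 change -2.74, SE 0.53, limma adjusted p = 2.9e-04). Lin28b, which blocks let-7 (-1.75), Plagl1 (-2.13), Igf2bp1 (-0.79), Marcksl1 (-1.49) and the tubulin-binding Stmn1 (-1.98) fell too, Gnas rose (0.69), and Igf2bp2 (-0.20) and Sox4 (0.35) did not pass. Several of these genes are also expressed by immature neurons. Of the 7 protrusion and neuritogenesis genes that the study chose on these samples, 0 were called by limma and 3 had an unadjusted limma p under 0.05. Their median change was -0.11, and the first listed were Ctnnd2 (0.72), Ncam2 (-0.11) and Ntrk2 (1.34). The study drew these genes from comparisons of MIA with Saline and followed them with other assays, so a step in age is no check of them.

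Counted in TPM, the largest losses were those of genes of the cytoskeleton and of Ctsb. Tmsb4x, thymosin beta 4, which binds actin monomers (chrX:167207093-167213479), was at 26502, 24037 and 19580.3 TPM at P7 and 12262, 13034 and 12552 TPM at P20 (log2 change -0.88, SE 0.21, limma adjusted p = 0.0019), and its call was lost with median-ratio scaling. Tubb5, a beta-tubulin (chr17:35833920-35838301), was at 1663, 1568 and 1516 TPM at P7 and 444, 435 and 428 TPM at P20 (log2 change -1.86, SE 0.18, limma adjusted p = 1.9e-08). Cfl1, cofilin, which cuts actin filaments (chr19:5490455-5494031), changed by -1.21 and Pfn1, profilin (chr11:70651844-70656799), by -0.82. All P20 libraries lay below all P7 libraries for these genes.

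The largest rises belonged to genes of myelin and neurons. Opalin, a protein of myelinating oligodendrocytes (chr19:41061959-41077113), was at 0.86, 0.3 and 0 TPM at P7 and 135, 88.8 and 71.8 TPM at P20 (log2 change 6.16, SE 0.47, limma adjusted p = 4.5e-10). Mog, myelin oligodendrocyte glycoprotein (chr17:37010740-37023398), was at 15.2, 12.3 and 18.3 TPM at P7 and 506, 324 and 339.6 TPM at P20 (log2 change 4.57, SE 0.54, limma adjusted p = 7.0e-07). Camk2a, a kinase of excitatory synapses, was at 1.34, 0.92 and 1.57 TPM at P7 and 134, 98.3 and 50.97 TPM at P20 (log2 change 5.29, SE 0.40, limma adjusted p = 4.9e-10). These genes were low in every P7 library and high in every P20 library, and P20 MIA 1 was the highest of the P20 libraries for each. Kif5a, a neuronal kinesin (5.72), Nrsn1, a neuronal vesicle protein (5.34), Ddn, a postsynaptic protein (4.78), Hpcal4, a neuronal calcium sensor (4.61), the myelin genes Mobp (4.69) and Ermn (4.69) and Fam107a (4.66) completed the list with Il7r and Mir7211. The last (4.05) lies inside Tmcc3, and in non-stranded libraries its reads cannot be told apart from those of Tmcc3.

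Of 16 oligodendrocyte lineage markers, 9 were higher, 1 lower and 6 did not pass, with a median change of 1.38. Their summed level was 516, 467 and 1182 TPM at P7 and 3949.8, 2685 and 2669.5 TPM at P20. The myelin genes Mag (3.14), Mbp (0.79), Cldn11 (3.15) and Cnp (2.80) rose, the lineage factors Sox10 (0.72), Olig1 (0.75) and Olig2 (-0.33) did not pass, and the progenitor marker Pdgfra fell (-0.88), a call lost without P7 MIA 3. Of 16 neuron markers, 7 were higher, 1 lower and 8 did not pass (50% called, against 35.6% of all transcripts). The median change was 0.01, and sums were 136, 134 and 324 TPM at P7 and 935, 644 and 478 TPM at P20. The markers of mature excitatory neurons Slc17a7 (3.91) and Nrgn (3.91) rose, those of young neurons Tubb3 (-0.79) and Stmn2 (-0.39) did not pass, and the imprinted RNA Meg3 fell (-1.40). The number of higher neuron markers was 4 without P20 MIA 1, P20 MIA 2 or P7 MIA 1, and the number of lower ones was 0 without P20 MIA 2 or P7 MIA 3 and 2 without P7 MIA 1 or P7 MIA 2.

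Of 14 astrocyte markers, 5 were higher, 0 lower and 9 did not pass (35.7% called, against 35.6% of all transcripts), with a median change of 0.24, and sums were 907, 963 and 2678 TPM at P7 and 3441, 2786 and 2817 TPM at P20. S100b (2.89), which oligodendrocytes also express, and the glutamate transporter Slc1a2 (2.51) rose most, and Aqp4 (0.17), Gfap (-0.47) and Gja1 (0.15) did not pass. The number of higher markers was 3 without P20 MIA 1, P7 MIA 1 or P7 MIA 2. P7 MIA 3 held more neuron, astrocyte, oligodendrocyte and endothelial marker RNA and less microglial marker RNA than the other P7 libraries. The 5 microglial markers of the purity panel summed to 25584, 25786 and 17570.1 TPM at P7 and 36675, 40225 and 36362 TPM at P20, and 4 of them rose, 2 with quantile normalization and 0 with P7 MIA 2 alone at P7.

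**Figure D3:**
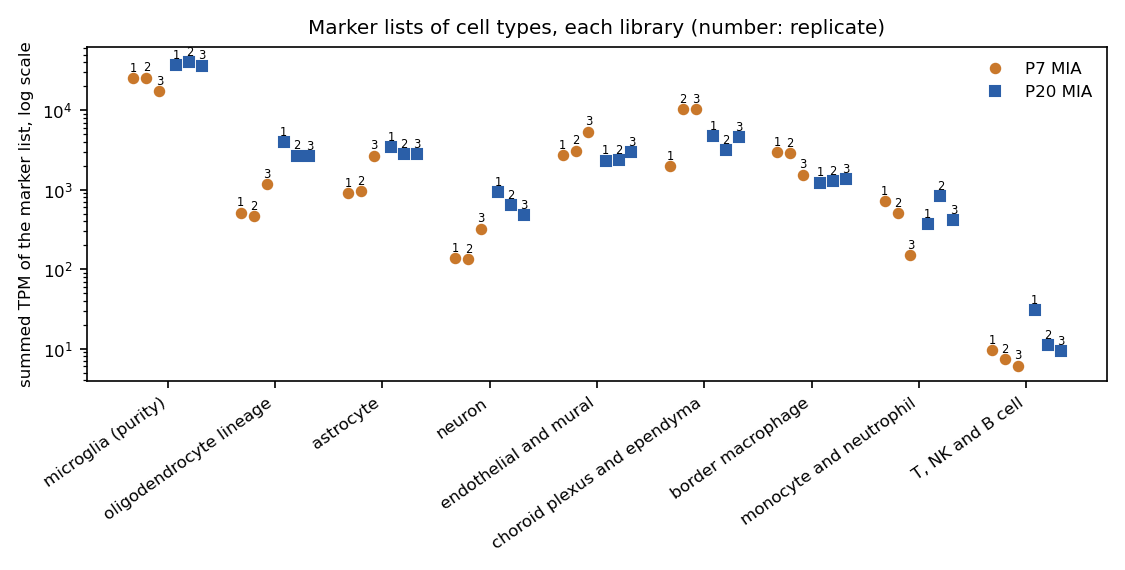
Summed TPM of the marker lists of microglia and of 8 groups of other cells in each MIA library, on a log axis, with circles for P7, squares for P20 and the replicate number above each point. The oligodendrocyte sums are 467 to 1182 TPM at P7 and 2669.5 to 3949.8 TPM at P20, and P7 MIA 3 stands apart from P7 MIA 1 and 2 in most lists.

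Of the purity marker TPM, microglial markers made up 98.1% ± 1.33 (SD, n = 3) at P7 and 96.4% ± 0.849 (SD, n = 3) at P20, a difference of -1.67 percentage points with a two-sided exact permutation p = 0.3, where 0.1 is the smallest p that 3 against 3 libraries allow. The oligodendrocyte share was 0.830% ± 0.505 at P7 and 3.14% ± 0.812 at P20 (exact permutation p = 0.1, n = 3). The mean shares of the other panels were lower at P20, from 0.302% ± 0.262 to 0.0961% ± 0.0325 for neurons (exact permutation p = 0.1, n = 3), from 0.449% ± 0.355 to 0.159% ± 0.00910 for astrocytes (exact permutation p = 0.1, n = 3) and from 0.306% ± 0.210 to 0.163% ± 0.0265 for endothelial cells (exact permutation p = 0.3, n = 3). The neuron and astrocyte panels hold fewer markers than the lists above, whose summed neuron and astrocyte levels were higher at P20. The covariates of the fit with marker levels were means of the neuron and oligodendrocyte lists, which hold Opalin, Mog, Mobp, Ermn and Camk2a. The summed levels of both lists also rose with age, so that fit cannot separate other cells from age. The part of other cells in the rises of myelin, neuronal and interferon genes was not tested.

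Of 9 markers of border macrophages, which sit in the meninges and around vessels, 3 were lower, 0 higher and 6 did not pass (33.3% called, near the 35.6% of all transcripts), with a median change of -0.28. Mrc1, the mannose receptor, was at 926, 901 and 559 TPM at P7 and 262, 247 and 294 TPM at P20 (log2 change -1.53, SE 0.22, limma adjusted p = 1.0e-05), Lyve1, a hyaluronan receptor, changed by -1.58, Pf4 by -1.50, and Cd163 (0.35) did not pass at under 1 TPM. Of 13 endothelial and mural markers, 3 were higher, 3 lower and 7 did not pass (46.2% called, against 35.6% of all transcripts). The median change was -0.06. The organic anion transporter Slco1a4 (2.22) rose, Kcnj8 (-1.90), Kdr (-1.64) and Cldn5 (-1.07) fell, and Emcn (-0.06) and Ocln (0.00) did not pass. The sums were 2717, 3094 and 5376 TPM at P7 and 2324, 2379 and 2981 TPM at P20.

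Among markers of blood cells, summed levels were low for lymphocyte markers and higher for monocyte and neutrophil markers. Of 16 monocyte and neutrophil markers, 1 was higher (Ccr2, 0.84), 1 lower (Mmp9, -1.81) and 14 did not pass (12.5% called, against 35.6% of all transcripts). The median change was 0.52, and sums were 717, 513 and 149 TPM at P7 and 365, 832 and 412 TPM at P20. The call of Ccr2 was lost without P20 MIA 1, P20 MIA 2 or P7 MIA 3, and that of Mmp9 without P20 MIA 1, and without P7 MIA 2 the number of lower markers was 2. Of 9 T, NK and B cell markers, 3 were higher, 1 lower and 5 did not pass (44.4% called, against 35.6% of all transcripts). The median change was 0.57. Gzma, a granzyme of cytotoxic lymphocytes, was listed at 0 in all 3 P7 libraries and at 11.04, 3.76 and 2.55 TPM at P20, Gzmb (1.24) and Il2rb (0.97) rose from under 0.1 TPM, and Cd79a (-0.85) fell, a call lost without P20 MIA 1 or P7 MIA 1. Summed, these 9 markers held 9.5, 7.46 and 6.14 TPM at P7 and 30.4, 11 and 9.26 TPM at P20. Of 3 erythroid markers with a value, 1 was lower (Epor, -1.31) and 0 higher (33.3% called, near the 35.6% of all transcripts). The median change was 0.35. Of 8 choroid plexus and ependyma markers, 2 were higher, 0 lower and 6 did not pass (25% called, against 35.6% of all transcripts). The median change was -0.04. Ttr, the most abundant, was at 1906, 9958 and 9977 TPM at P7 and 4527, 3044 and 4378 TPM at P20 (log2 change -0.55, limma adjusted p = 0.571). Of the 5 sex-linked genes, 2 Y-linked genes, Ddx3y and Eif2s3y, were lower at P20 and 0 higher, with a median change of -2.64, and both calls were lost with P7 MIA 2 alone at P7.

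The same step in age was taken in the Saline offspring, in libraries that it does not share with the MIA step. There, 5151 transcripts (36.2%) passed, 2289 (16.1%) higher and 2862 (20.1%) lower at P20. Both steps called 3824 transcripts, which were 75.5% of the MIA calls and 74.2% of the Saline calls, and 3823 of them changed in the same direction. Of the 1239 called in MIA alone, 1182 had the same sign in Saline. Across transcripts, which are not independent replicates, the changes had a Pearson r of 0.917 and a Spearman rho of 0.853.

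In Saline, the mitosis list had 0 higher and 22 lower with a median change of -4.26, the DNA replication list 0 higher and 31 lower with a median change of -1.84, and the homeostatic list 23 higher and 0 lower with a median change of 0.82. Mki67 was at 176, 171 and 200.1 TPM at P7 Saline and 4.56, 4.6 and 2.84 TPM at P20 Saline, and changed by -5.22 against -5.14 in MIA. Tmem119 was at 341, 583 and 558 TPM at P7 Saline and 2714, 3434 and 2774 TPM at P20 Saline, and changed by 2.62 against 2.46 in MIA. Gpnmb changed by -5.88 against -5.97, and Mog by 5.14 against 4.57. All 4 genes were called in the same direction in both kinds of offspring. The sex-linked list had 0 higher and 4 lower with a median change of -3.24 in Saline, so sex-linked levels moved with age there too.

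The antigen presentation list had 10 higher and 0 lower with a median change of 0.45 in Saline, the same counts as in MIA with a smaller median. Other lists had counts that were further apart. Of all transcripts, 36.2% were called in Saline, 16.1% higher and 20.1% lower. In Saline, the early phagocytic list had 1 higher and 14 lower with a median change of -0.79, the lysosome list 1 higher and 12 lower with a median change of -0.40 and the ribosomal list 1 higher and 30 lower with a median change of -0.63. The choroid plexus and ependyma list had 4 higher and 0 lower with a median change of 1.48 in Saline, against 2 higher and 0 lower with -0.04 in MIA. Its sums were 1980, 10214.5 and 10289 TPM in P7 MIA 1, 2 and 3 and 3521, 3101 and 1330 TPM in P7 Saline 1, 2 and 3. P7 MIA 2, the library used alone at P7 in 1 fit, was thus rich in this RNA. The interferon list had 6 higher and 3 lower with a median change of 0.51 in Saline, against 17 higher and 2 lower with 0.81 in MIA. Ifit1 changed by 1.502 in Saline and 1.87 in MIA, and Ifit3 by 1.65 and 1.77. A list that passes more often in MIA is not shown to differ between the offspring, since the test of the difference gave no call.

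In the test of whether the MIA step differed from the Saline step, limma called 0 transcripts (0%) at an adjusted p under 0.05, and 452 (3.18%) had an unadjusted p under 0.05. The 95% interval of the difference had a median half-width of 0.63 on the log2 scale, so that an estimate of 0 for a typical transcript would leave differences of up to this size in either direction within its interval. Of all transcripts, Kbtbd4, a Kelch-repeat and BTB-domain protein seen at 1.55 TPM or less in every MIA and Saline library of the 2 ages, had the smallest p (difference -0.97, 95% interval -1.42 to -0.51, unadjusted p = 1.9e-04, limma adjusted p = 0.998). It was at 0.86, 0.79 and 0.44 TPM at P7 and 0.11, 0.23 and 0.31 TPM at P20 in MIA and at 0.55, 0.39 and 0.58 TPM at P7 Saline and 0.92, 0.93 and 1.55 TPM at P20 Saline, and was the 1 transcript called in both steps with opposite directions (-0.47 and 0.49). Gtf3c6, a subunit of the RNA polymerase III factor TFIIIC, was at 75.3, 62.6 and 79.5 TPM at P7 and 49.3, 54.5 and 48.8 TPM at P20 in MIA and at 53.8, 59.9 and 65.1 TPM at P7 Saline and 68.2, 56.1 and 66.7 TPM at P20 Saline (difference -0.59, 95% interval -0.92 to -0.26, unadjusted p = 0.001, limma adjusted p = 0.998). Zfp945, a zinc finger gene (difference 0.67), and Wdr72 (-1.43) were also among the 5 smallest p-values, none of which passed the adjustment.

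**Figure D4:**
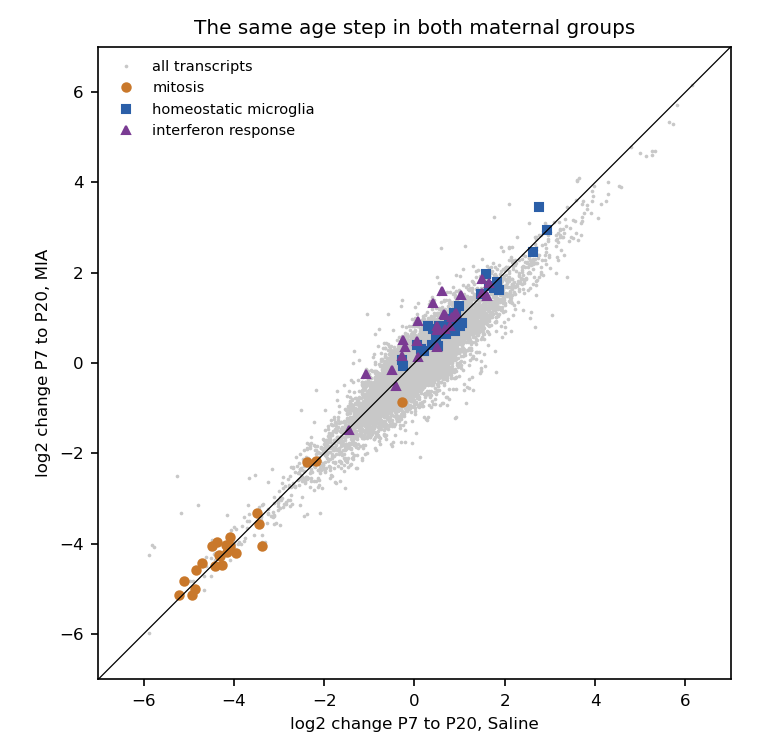
Change in log2(TPM + 1) from P7 to P20 in Saline (horizontal) and in MIA (vertical), 1 grey point a transcript, with the line of equal change and the mitosis, homeostatic and interferon genes as colored symbols. The points lie along the line with a Pearson r of 0.917 across transcripts, the mitosis genes at its lower end.

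Set beside the other ages of the MIA offspring, the step from P7 to P20 held most of the fall of the cell division genes. The mean sum of the mitosis list was 1905 TPM at E17, 2058 at P7, 102 at P20 and 73.6 at P60 (MIA + CTRL), and that of the DNA replication list 2114 TPM at E17, 2051 at P7, 469 at P20 and 457 at P60. The homeostatic list stood at 29417 TPM at E17, 39604 at P7, 94992 at P20 and 100273 at P60, and the antigen presentation list at 6036 TPM at E17, 6948 at P7, 9814 at P20 and 8885 at P60. For all 4 lists the P20 mean was closer to the P60 mean than to the P7 mean, in a description without a test, since these ages share libraries with the step.

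**Figure D5:**
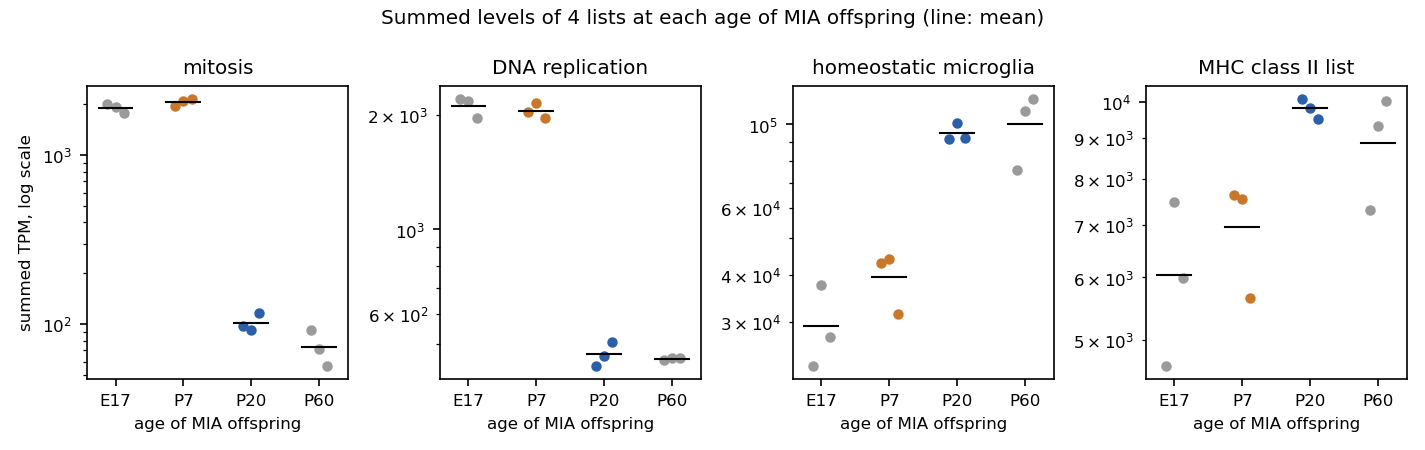
Summed TPM of 4 gene lists in each MIA library at E17, P7, P20 and P60 (MIA + CTRL), 1 point a library with a line at the mean, on a log axis that differs between panels. The mitosis sum is about as high at E17 as at P7, with means of 1905 and 2058 TPM, and has its drop between P7 and P20.

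Each transcript of the table carries 1 of the 5 modules into which the study clustered these libraries, so that the modules and the step in age are not independent. Of the 4681 transcripts of the immature module (IM), 2777 were lower and 1 higher at P20, with a median change of -0.55. The juvenile module (JM) had 804 of 2318 higher and 1 lower, and the adult module (AM) 962 of 3276 higher and 3 lower, both with a median of 0.37. The MIA-IM module had 258 of 2816 lower and 7 higher, and the REP-AM module 166 of 1134 lower and 84 higher.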

How the data were processed

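RNA of CD11B bead-isolated whole-brain microglia was sequenced in 30 libraries, 3 for each of 10 groups, of which the 6 MIA libraries at P7 and P20 and the 6 Saline libraries at the same ages are reported. The libraries were non-stranded and made from poly(A) RNA. Reads were mapped by the authors to mm10 (Rsubread), assigned to genes of the UCSC annotation (featureCounts) and filtered by a CPM minimum. The deposited values are the authors' TPM for 14225 transcripts of 13483 genes. How TPM were computed, and how reads shared by transcripts of a gene were assigned, is not given in the sources used here. No count model was fitted, because the values are not counts. Low values in the MIA libraries were whole multiples of 1 read (within 0.2) for 73.8% to 75.5% of low transcripts, against 40% by chance. From these steps the reads on the listed transcripts were estimated, and whole reads were not recovered. RefSeq genes of GRCm38.p6 were matched for 14207 transcripts (99.9%).

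The 30 libraries were fitted in 1 linear model of 10 group means on log2(TPM + 1) with limma 3.58.1 in R 4.3.3, with empirical Bayes moderation and a mean-variance trend, two-sided tests and Benjamini-Hochberg adjustment over all transcripts at 0.05. No filter on low values was set. The contrasts were P20 MIA against P7 MIA, the same in Saline, and the difference between these. Purity shares were compared by a two-sided exact permutation test (scipy 1.17.1). The labels give no sex, litter or batch, so p-values measure the spread between libraries. The fit was tested on simulated data. Figures were drawn in Python 3.11.15 with matplotlib 3.10.9.

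Named were, among passing transcripts without overlap of the groups and a mean of at least 5 TPM in 1 of them, the 12 largest rises, the 12 largest falls and the 5 largest gains and losses in TPM, with the 5 smallest p-values of the difference. From each list the first 3 members and the largest changes each way were taken, and further members only with their values. Some of the genes so named are not reported here. The members and the 32 lists were chosen with earlier results of these data known. In lists with 0 members called in a direction, 0 to 2 had an unadjusted p under 0.05 there. Genes of a list without a value in the table were left out. Alternatives were a pseudocount of 0.1, quantile normalization, median-ratio scaling, the removal of transcripts with a mean below 1 TPM, fewer groups, log2 Xist as a covariate, no trend, the replicate number as a block, P7 MIA 2 alone at P7, and each library left out.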

Additional observations from a re-analysis of the deposited data

How the results depend on the processing

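The number of transcripts that differed between P7 MIA and P20 MIA was 4803 to 5281 under the other scalings, filters, pseudocount and models, and 4060 to 4603 when 1 library was left out. With P7 MIA 2, the P7 library without Y-linked signal, alone at P7, 2537 transcripts passed, of which 2491 were shared with the 5063, and the lone library is assumed to vary like the other groups. With neuron and oligodendrocyte marker levels as covariates, which were added after the data were seen, 5249 passed, 22.9% of them higher, and 3010 were shared. Without P7 MIA 3, 43.0% of the calls were higher. The Saline count was 4051 to 4800 when 1 library was left out, and 4362 to 5279 otherwise. The difference between the steps had 0 calls by limma under each of 21 alternatives, with 279 to 751 transcripts at an unadjusted p under 0.05. The purity difference was -0.29 percentage points when each cell type was given by its median marker, and -2.43 to -1.19 when 1 library was left out. Of the values for single named genes, 668 kept their direction and their side of the threshold and 12 no longer passed, among them those of Tmsb4x, Pfn1 and Ctsd, and of the counts for lists, 692 were within 1.5 times, 25 were larger and 99 smaller. With P7 MIA 2 alone at P7, the number of higher members fell from 7 to 2 for complement and Fc receptors, from 8 to 4 for transcription factors, from 7 to 3 for immediate early genes and from 6 to 3 both for cytokines and for phagocytic receptors, and that of lower members from 16 to 9 for oxidative phosphorylation and from 13 to 6 for chromatin regulators and to 7 for splicing factors. With the marker covariates, lower members numbered 16 in place of 3 for cholesterol genes, 4 in place of 10 for cytokines and 5 in place of 13 for splicing factors. No call reversed. Libraries with the same replicate number had correlations of deviations of -0.16 to 0.10, and those with different numbers -0.21 to 0.24. With 3 libraries in each group and no litter or batch in the labels, this cannot show whether the numbers paired the samples. A fit with the replicate block called 4964 transcripts in MIA and 5039 in Saline. The estimated number of reads on the listed transcripts of the MIA and Saline libraries, 8123000 to 11956000, limits what can be said of genes near 1 TPM.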
